A study of Mus musculus with 24 samples.

Results

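Whole lung of Scnn1b-transgenic (Scnn1b-Tg) mice at postnatal day (PND) 10 was compared with whole lung of Scnn1b-Tg mice at PND 3, using the 3 arrays of each age, which are 6 of the 24 arrays of the series. The series matrix holds log2 expression values, and every feature annotated with exactly 1 gene symbol entered, with the brightest feature kept per gene, which left 19938 genes. The study followed Scnn1b-Tg mice and their wild-type (WT) littermates at PND 0, PND 3, PND 10 and PND 42, with 3 arrays in each of the 8 groups. All mice were untreated males labelled C57Bl/6N Tac, kept under specific-pathogen-free conditions, and the left lobe was used. The transgene is Scnn1b, which encodes the beta subunit of the epithelial sodium channel, and it is driven by the Scgb1a1 promoter, which is active in club cells of the airway. The 3 WT PND 3 arrays and the 3 WT PND 10 arrays, from mice without the transgene, served as the reference for change with age. Each array held RNA pooled from several mice, so the p-values below measure the spread between pools and not between single animals.

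The Scnn1b-Tg mouse absorbs too much sodium and water from the airway surface, and its airways go on to fill with mucus and to become inflamed. The days between PND 3 and PND 10 are also those in which the mouse lung forms alveoli, as septa carrying elastic fibres, myofibroblasts and capillaries grow into the saccules. At the same time macrophages settle in the new airspaces and mature there, and adaptive immunity begins to form.

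The labels were first checked against markers of tissue and transgene. Scnn1b was 10.42, 10.65 and 10.04 (log2) in the Scnn1b-Tg PND 3 pools and 9.70, 9.62 and 10.01 in the PND 10 pools, against a range of 6.37 to 7.52 in the WT pools of both ages. Its change with age in the transgenic lung was -0.59 (SE 0.26, adjusted p = 0.28) and was not called. Sftpc, the surfactant protein that marks alveolar type 2 cells, lay between 12.39 and 14.04 in the 6 Scnn1b-Tg pools. None of the 20 type 2 cell markers had a mean of 5 or less in both Scnn1b-Tg groups, against 9064 of all 19938 genes. Arrays of the same age correlated at 0.983 to 0.990 across genes and arrays of different age at 0.972 to 0.983. Single pools stood apart in single gene groups. PND 10 replicate 1 held keratins of squamous epithelium, PND 10 replicates 1 and 2 held skeletal muscle transcripts, and PND 3 replicate 1 was highest for glucocorticoid-induced genes. In WT, PND 3 replicate 2 was the highest pool of its age for most innate cytokine genes. The values of these groups are given below, and each main count is given without each pool.

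In the Scnn1b-Tg lung 100 genes were called higher at PND 10 than at PND 3, which is 0.502% of the genes tested, and 55 were called lower, which is 0.276%. A gene was called where its limma p-value, adjusted after Benjamini and Hochberg, was no more than 0.05 and its change reached 2-fold. The unadjusted limma p was under 0.05 for 2831 of the 19938 genes, the background for such counts in the lists below. The 100 rises had a median log2 change of 1.21 and the 55 falls a median of -1.19, against -0.0103 over all genes tested. Every called change had to reach 2-fold, so this gap from the median of all genes follows from the rule. The called rises covered antigen presentation by major histocompatibility complex (MHC) class II, a macrophage elastase, mitosis, and adhesion and matrix proteins. The called falls included 2 tight junction genes, 1 sodium channel subunit, 3 genes of the cytokine lists, the fetal growth factor Igf2 and small nucleolar RNAs. The 3 arrays of each age did not overlap in 154 of the 155 called genes, where 9.19% of all genes had every PND 10 pool above every PND 3 pool and 10.6% had every PND 10 pool below. The exception was Tnnc2, a troponin of fast skeletal muscle. The calls were made on these same arrays, so the lack of overlap follows in large part from the call rule. Without PND 3 replicate 1 the counts were 60 higher and 23 lower, and without PND 10 replicate 3 they were 74 and 30. The other 4 omissions gave 89 to 118 higher and 36 to 86 lower. In all, 42 rises and 18 falls were called whichever of the 6 pools was left out, and a gene named below as called belongs to these 60 unless stated there, with its list or in the paragraph that follows. In whole lung, fewer cells of a type and less RNA per cell cannot be told apart.

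Promoter sequence is shown for 2 of the groups whose members rose together, MHC class II and mitosis, so that the letters shared within each group can be seen. The windows run from 150 bases before the RefSeq start to 30 bases from the start on, on the coding strand of GRCm38.p6. Capitals mark matches to CCAAT or its other strand ATTGG, to AGCAAC or its other strand GTTGCT, and to TTTGAA or its other strand TTCAAA, in each of the 4 windows, and no match in these windows overlapped another. H2-Aa lies at chr17:34287794-34287973 on the minus strand, H2-Eb1 at chr17:34305717-34305896 on the plus strand, Prc1 at chr7:80294301-80294480 on the plus strand and Ccnb2 at chr9:70421525-70421704 on the minus strand.
H2-Aa: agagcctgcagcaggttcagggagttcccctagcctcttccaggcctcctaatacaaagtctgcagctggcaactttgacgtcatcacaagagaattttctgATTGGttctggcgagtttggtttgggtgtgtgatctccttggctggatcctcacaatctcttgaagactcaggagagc
H2-Eb1: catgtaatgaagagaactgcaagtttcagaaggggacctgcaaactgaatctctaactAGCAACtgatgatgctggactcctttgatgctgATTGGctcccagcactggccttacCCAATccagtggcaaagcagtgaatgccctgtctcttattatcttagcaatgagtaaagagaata
Prc1: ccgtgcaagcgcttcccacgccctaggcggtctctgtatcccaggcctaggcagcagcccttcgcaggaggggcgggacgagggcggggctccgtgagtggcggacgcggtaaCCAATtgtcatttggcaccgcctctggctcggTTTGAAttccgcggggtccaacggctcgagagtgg
Ccnb2: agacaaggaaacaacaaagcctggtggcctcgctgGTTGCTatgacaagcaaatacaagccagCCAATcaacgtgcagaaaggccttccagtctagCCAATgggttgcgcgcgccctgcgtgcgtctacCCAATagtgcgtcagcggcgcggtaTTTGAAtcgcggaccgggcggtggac

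CCAAT was found in all 4 windows, once in H2-Aa and Prc1, at 2 places in H2-Eb1 and at 3 places in Ccnb2. AGCAAC was found once in H2-Eb1 and, on the other strand, once in Ccnb2. Over the 27025 genes with a promoter in the RefSeq table, 27.5% held CCAAT, 10.5% held TTTGAA and 9.51% held AGCAAC in a window of the same length. Of the 42 mitosis genes with a promoter, 31 (73.8%) held CCAAT, 28 (66.7%) held TTTGAA and 5 (11.9%) held AGCAAC. Both motifs together were present in 24 of the 42 (57.1%), against 2.92% of all promoters. Of the 11 called mitosis genes with a promoter, 11 held CCAAT and 10 held both motifs. Among the 7 MHC class II genes with a promoter, 5 (71.4%) held CCAAT, 4 (57.1%) held AGCAAC and 0 held TTTGAA. These matches are descriptions of letters, not of bound sites. H2-Ab1 was not among the promoters used here.

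Transcripts for several chains of the molecules that present peptides to helper T cells rose together. Of 10 measured genes of the MHC class II pathway, 4 were called higher and 0 lower, and the median change of the list was 0.49. H2-Ab1, the beta chain of the I-A molecule, was 6.86, 7.12 and 7.76 in the PND 3 pools and 9.12, 9.50 and 9.17 in the PND 10 pools. Every PND 10 pool was thus above every PND 3 pool by more than 1 log2 unit, and the change was 2.02 (SE 0.20, limma adjusted p = 2.3e-06), or 4.05-fold. H2-Aa, the alpha chain of the same molecule, went from 7.30, 7.32 and 7.99 to 9.20, 9.75 and 9.62, a change of 1.99 (SE 0.19, adjusted p = 1.7e-06). Cd74, the invariant chain that guards the peptide groove until loading, was 7.49, 7.47 and 7.66 at PND 3 and 9.24, 9.59 and 9.60 at PND 10. Its change of 1.94 (SE 0.14, adjusted p = 3.3e-08), or 3.83-fold, came with the narrowest spread between pools of these 4 genes at each age. H2-Eb1, which encodes the beta chain of I-E, was 5.76, 6.06 and 6.46 at PND 3 and 7.72, 8.13 and 7.71 at PND 10, with a change of 1.76 (SE 0.17, adjusted p = 1.8e-06). Only RNA was measured, and whether an I-E molecule is made in these mice was not tested.

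The remaining members of the pathway were not called. H2-DMa, which helps to load the peptide, changed by 0.49 (adjusted p = 0.098) and H2-Ob, which restrains loading, by 0.49 (adjusted p = 0.12). Ciita, the coactivator that switches on class II genes, was 4.67, 4.50 and 4.58 at PND 3 and 4.99, 4.69 and 4.64 at PND 10, a difference of 0.19 (adjusted p = 0.62) on a probe set near the middle of each array. The list was called at 4 genes whichever pool was left out. Class II genes are made by dendritic cells, macrophages and B cells, and the macrophage markers are described in the next paragraphs. Of 15 dendritic cell markers 1 was called, and it was Itgax, while 9 had a mean of 5 or less at both ages. Flt3, Xcr1 and Clec9a changed by 0.04, 0.04 and 0.20. Of 15 B and plasma cell genes 0 were called and 1 had an unadjusted p under 0.05 in limma (median 0.09), with Cd22 at 0.33. Jchain, the joining chain of secreted antibodies, was 4.26, 4.05 and 4.0 at PND 3 and 7.36, 4.38 and 4.35 at PND 10, so that its value in PND 10 replicate 1 stood alone (change 1.26, adjusted p = 0.18).

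**Figure D1:**
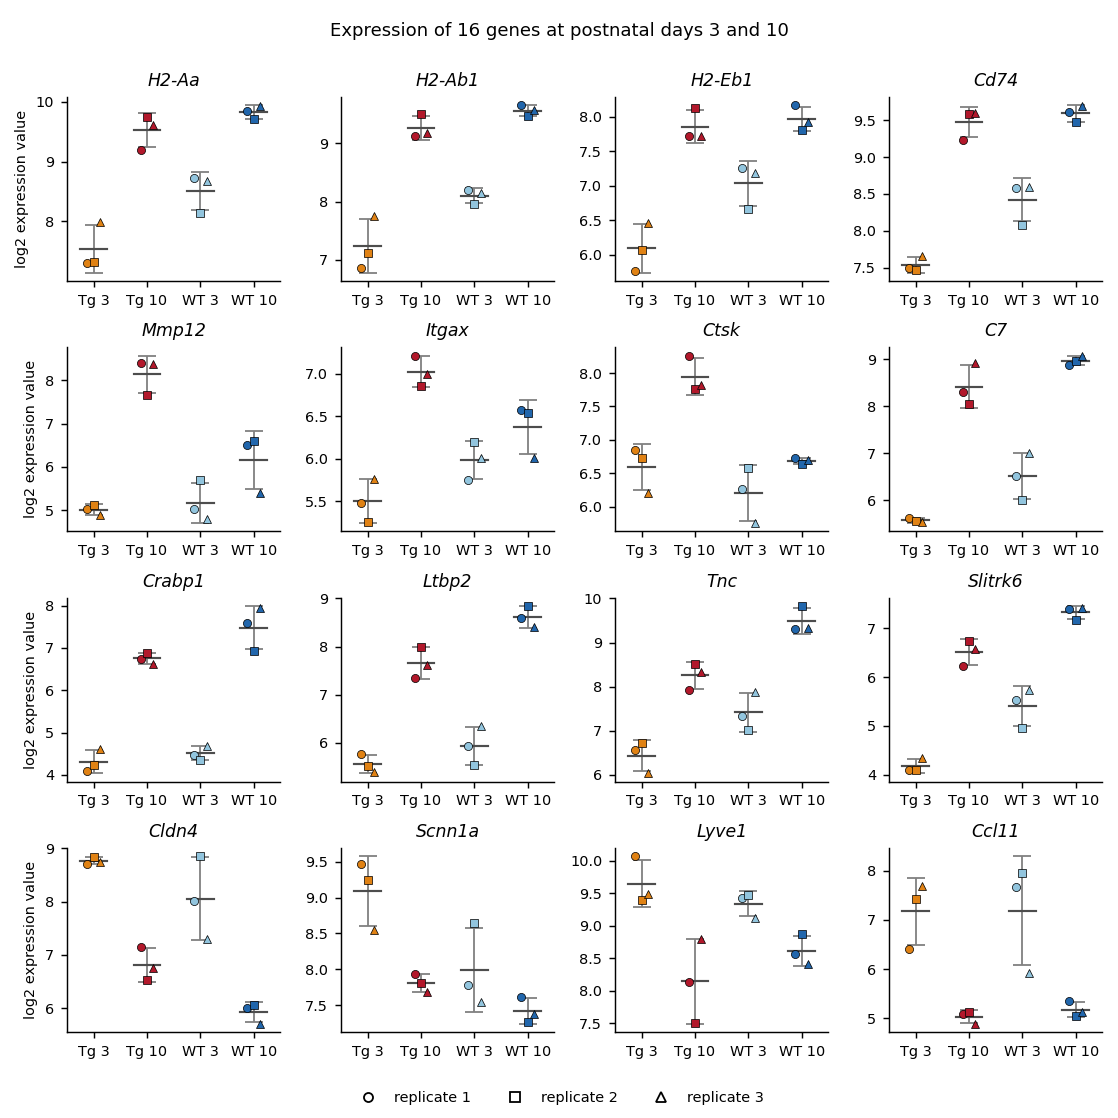
Log2 expression of 16 genes in each pool of Scnn1b-Tg PND 3, Scnn1b-Tg PND 10, WT PND 3 and WT PND 10, with 1 point per array marked by replicate and a bar for the mean ± SD (n = 3). The 3 Scnn1b-Tg PND 10 pools of H2-Ab1 lie at 9.12 to 9.50 and those of Mmp12 at 7.65 to 8.41, all above the PND 3 pools, while those of Cldn4 lie at 6.52 to 7.15, all below.

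Macrophage genes rose in part. Of 22 macrophage markers 3 were called higher and 0 lower, with a list median of 0.22 and 13 of 22 members above 0. Mmp12, the macrophage elastase that degrades elastin, was 5.03, 5.12 and 4.88 at PND 3 and 8.41, 7.65 and 8.37 at PND 10. The ages were apart by more than 2 log2 units in each pair of pools, and the change was 3.14 (SE 0.27, adjusted p = 5.6e-07), or 8.80-fold. Itgax, the integrin subunit CD11c that marks alveolar macrophages and dendritic cells, was 5.49, 5.26 and 5.77 at PND 3 and 7.21, 6.85 and 7.0 at PND 10. Its change was 1.52 (SE 0.29, adjusted p = 0.0046). Ctsk, a cysteine protease that cleaves collagen, was 6.85, 6.73 and 6.20 at PND 3 and 8.26, 7.75 and 7.82 at PND 10, a change of 1.35 (SE 0.21, adjusted p = 0.001). The general markers of the lineage did not pass the test. Cd68 changed by 0.35 (adjusted p = 0.59), Csf1r by 0.51, Siglecf by 0.42 and Adgre1, a surface receptor of tissue macrophages, by 0.73 (adjusted p = 0.057). Marco, a scavenger receptor, was 6.06, 5.28 and 5.08 at PND 3 and 5.96, 4.96 and 5.17 at PND 10.

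Mmp12 was also the 1 called gene of 23 metalloproteinases and their inhibitors (list median -0.02), and Ctsk the 1 called gene of 14 cathepsins (median -0.01). Chil3 and Chil4, chitinase-like proteins that alternatively activated macrophages and airway epithelium release, were the 2 called genes of 6 chitinase family members, with changes of 2.49 and 1.91. Among 19 goblet cell and mucus genes, Clca1, Tff2 and Bpifb1 were called, with changes of 3.33, 3.20 and 1.74. Without PND 3 replicate 1 the change of Bpifb1 was 1.46 (adjusted p = 0.062), which ended its call. The secreted mucin Muc5b was 6.54, 6.16 and 6.02 at PND 3 and 7.67, 7.07 and 6.88 at PND 10, without overlap, but its change of 0.96 (adjusted p = 0.18) was not called. These rises were not particular to the transgenic lung. In WT, Chil3 and Chil4 changed by 3.36 and 3.73, with the difference between genotypes called for neither, and 7 of the 19 goblet cell genes were called higher.

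Outside antigen presentation, immune genes moved singly. C7, a component of the membrane attack complex of complement, was 5.63, 5.56 and 5.53 at PND 3 and 8.29, 8.04 and 8.91 at PND 10. It rose by 2.84 (SE 0.30, adjusted p = 5.2e-06), or 7.17-fold, and was the 1 called gene of 25 complement genes (median 0.18). Cd3g, a chain of the T cell receptor complex, was 5.09, 5.20 and 5.23 at PND 3 and 7.43, 6.82 and 6.18 at PND 10, with a change of 1.64 (SE 0.27, adjusted p = 0.0014). It was the 1 called gene of 21 T and natural killer cell genes and of 10 thymocyte genes, the latter listed after the values were seen. Cd3d, Cd3e, Cd4 and Cd8a, which T cells express beside it, changed by 0.33, 0.23, -0.09 and 0.35, and Rag1 and Dntt, which rearrange receptor genes in the thymus, by -0.10 and 0.19. Each of these genes named beside Cd3g had a mean of 5 or less at both ages. So did 17 of the 21 T and natural killer cell genes and 9 of the 10 thymocyte genes, so changes in them may be understated. Pigr, the receptor that carries polymeric antibody across epithelium, was 5.21, 5.56 and 5.06 at PND 3 and 7.40, 5.98 and 6.57 at PND 10, a change of 1.37 (SE 0.24, adjusted p = 0.0028).

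Single cytokine genes were called lower. Ccl11, the eosinophil chemoattractant eotaxin, was 6.41, 7.42 and 7.69 at PND 3 and 5.09, 5.13 and 4.89 at PND 10. It fell by 2.14 on the log2 scale (SE 0.39, adjusted p = 0.0034) and was the 1 called gene of 17 type 2 cytokine genes (median 0.07). Of 23 innate cytokine genes 2 were called lower, Ccl20 and Csf2, and the list median was -0.18. Ccl20, an epithelial chemokine for immature dendritic cells, was 7.05, 7.39 and 6.36 at PND 3 and 5.71, 4.55 and 4.74 at PND 10. Csf2, the growth factor that alveolar macrophages need, was 7.39, 6.88 and 6.70 at PND 3 and 6.05, 6.02 and 5.80 at PND 10, a fall of 1.03 (adjusted p = 0.012). Neither call held without PND 3 replicate 1, where Ccl20 changed by -1.87 (adjusted p = 0.13) and Csf2 by -0.84 (adjusted p = 0.087), or without PND 10 replicate 3, where they changed by -1.80 and -0.96. The Ccl20 call was also lost without PND 3 replicate 2 (-1.70) and without PND 10 replicate 2 (-1.71). In WT, where PND 3 replicate 2 was high for most of these genes, the median of the innate list was -0.74. None of its 23 members was above 0 there, against 5 in Scnn1b-Tg.

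Granulocyte genes gave 1 call in each list. Of 22 neutrophil genes (median -0.12, 6 above 0) Stfa3, a cysteine protease inhibitor of neutrophils, was called lower (-1.42, adjusted p = 0.033). Cd177, a neutrophil adhesion molecule, changed by 1.31 (adjusted p = 0.094) with overlapping pools. Of 18 eosinophil and mast cell genes (median -0.02, 8 above 0) Mcpt4, a mast cell chymase, was called lower (-1.12, adjusted p = 0.026). The Mcpt4 call was lost without any 1 pool except PND 3 replicate 3, with changes of -0.94 to -1.20, and the Stfa3 call without PND 3 replicate 1 or 3 or PND 10 replicate 2 or 3, with changes of -1.13 to -1.48. Cpa3, the mast cell carboxypeptidase, was 6.29, 5.89 and 5.57 at PND 3 and 5.05, 4.69 and 5.02 at PND 10. Its change of -1.0 (adjusted p = 0.0026) passed the test but fell just short of 2-fold, and Cma1, another mast cell chymase, changed by -0.77 (adjusted p = 0.0037). Pf4, a chemokine of platelets that macrophages also express, fell by 1.23. Of 20 interferon-induced genes 0 were called and 2 had an unadjusted p under 0.05 (median 0.03), with Oas1a at 0.78 and Ddx58 at 0.41.

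Genes of mitosis were higher at PND 10 throughout the list. All 49 measured members had a change above 0, from 0.21 to 1.39, with a median of 0.81, and the pools of the 2 ages did not overlap in 42 of them. The call rule was passed by 12 (24.5%) and by 0 in the other direction. Prc1, which bundles the microtubules of the central spindle, was 5.0, 5.91 and 5.64 at PND 3 and 6.65, 6.51 and 7.55 at PND 10, a change of 1.39 (SE 0.30, adjusted p = 0.013). Aurka, a kinase of the spindle pole, was 5.27, 5.81 and 5.86 at PND 3 and 6.87, 6.65 and 7.40 at PND 10, a change of 1.32 (SE 0.25, adjusted p = 0.0045). Ccnb2, a cyclin that drives entry into mitosis, was 6.42, 6.66 and 7.27 at PND 3 and 7.80, 7.62 and 8.39 at PND 10. PND 3 replicate 1 was lowest and PND 10 replicate 3 highest in each of these 3 genes. The other called members were Pbk, Top2a, Kif22, Spc25, Cenpa, Cdca8, Racgap1, Ckap2 and Mki67, with changes of 1.02 to 1.27. Top2a, a topoisomerase that untangles DNA, is measured by more than 1 feature, and its change of 1.27 on the brightest became -0.0188 when its features were averaged. Cdk1, the kinase that B-type cyclins activate, was 6.93, 7.09 and 7.45 at PND 3 and 7.61, 7.55 and 8.03 at PND 10, and its change of 0.57 (adjusted p = 0.15) was not called.

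The number of calls in the mitosis list rested on single pools. Without PND 3 replicate 1 the list had 1 call and a median of 0.70, and without PND 10 replicate 3 it had 1 call and a median of 0.57. The other omissions left 6 to 15 calls. All 49 members remained above 0 under each of the 6 omissions. Aurka was the member called under each omission, whereas Prc1 changed by 1.13 (adjusted p = 0.094) without PND 3 replicate 1 and by 1.07 (adjusted p = 0.096) without PND 10 replicate 3. The mean of the list was 5.34, 5.63 and 5.72 in the PND 3 pools and 6.18, 6.11 and 6.89 in the PND 10 pools. In WT it was 6.32, 5.39 and 6.51 at PND 3 and 6.00, 6.20 and 6.26 at PND 10, so the WT PND 3 pools lay among the values of both transgenic ages. The WT median of the list was 0.04 with 0 calls. The difference between the genotypes in the change with age was called for 0 of the 49 genes, with 29 at an unadjusted p under 0.05 and a median of 0.77. Without WT PND 3 replicate 2, the lowest WT pool, it was called for 5 and the median was 1.14.

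Genes of DNA replication and histones moved the same way with fewer calls. Of 41 replication genes 0 were called and 23 had an unadjusted p under 0.05, 39 were above 0, the pools did not overlap in 11, and the median was 0.46. Mcm4, a subunit of the replicative helicase, changed by 0.81 (adjusted p = 0.032) and Rrm2, a subunit of ribonucleotide reductase, by 1.12 (adjusted p = 0.092). Of 26 histone genes 25 were above 0, 17 did not overlap, and the median was 0.52. The 1 called histone gene was H2bc14, at 7.76, 8.02 and 8.06 at PND 3 and 8.98, 9.04 and 9.28 at PND 10. Its change of 1.16 had an adjusted p of 0.036, and it was not called when any 1 pool was left out, with changes of 1.06 to 1.22. Of 14 genes that restrain the cell cycle, which include 6 cyclin-dependent kinase inhibitors and also the retinoblastoma, Btg and Gadd45 families, 1 rose and 1 fell (median -0.16). Cdkn2b, the inhibitor p15, was 8.19, 7.75 and 8.0 at PND 3 and 6.97, 6.55 and 6.94 at PND 10, a fall of 1.16 (adjusted p = 0.0016). Cdkn2c, the inhibitor p18, rose by 1.11 (adjusted p = 0.018), a call lost without PND 3 replicate 1 or 2 or PND 10 replicate 2 or 3, with changes of 0.95 to 1.10.

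**Figure D2:**
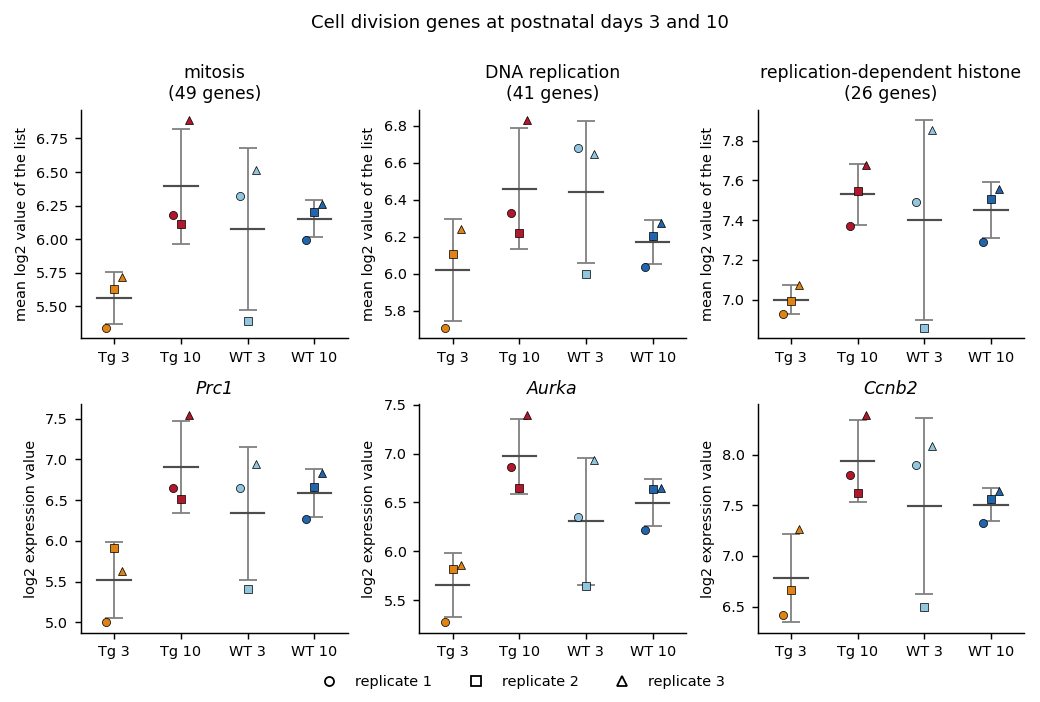
Mean log2 expression of the 49 mitosis, 41 DNA replication and 26 histone genes, and log2 expression of Prc1, Aurka and Ccnb2, in each Scnn1b-Tg and WT pool at PND 3 and PND 10 (points, 1 per array; bars, mean ± SD, n = 3). The mitosis mean is 5.34 to 5.72 in Scnn1b-Tg PND 3 and 6.11 to 6.89 in Scnn1b-Tg PND 10, while the WT PND 3 pools run from 5.39 to 6.51.

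Part of the extracellular matrix genes rose. Of 36 matricellular and adhesion matrix genes 6 were called higher and 0 lower, with a median of 0.34. Tnc, a glycoprotein of developing and injured tissue, was 6.56, 6.72 and 6.04 at PND 3 and 7.93, 8.51 and 8.33 at PND 10, a change of 1.82 (SE 0.28, adjusted p = 0.00096). Frem1, a basement membrane protein, was 6.15, 6.20 and 6.16 at PND 3 and 7.14, 7.39 and 7.66 at PND 10, a change of 1.23 (adjusted p = 0.0034). Both genes had their ages apart in every pool. Hmcn1, Fn1, Postn and Vcan made up the other 4 calls, with changes of 1.05 to 1.44, and each of these calls was lost when single pools were left out. The list had 2 calls without PND 10 replicate 3 and 3 without PND 10 replicate 2. Postn, a matrix protein of fibroblasts, changed by 0.92 without PND 10 replicate 3 and by 0.91 without PND 3 replicate 3. Fn1, fibronectin, lost its call without those pools (1.08 and 0.88) and without PND 10 replicate 2 (0.94). Vcan, a large proteoglycan, lost it in 4 omissions, with changes of 0.75 to 1.08, and kept it without PND 3 replicate 3 or PND 10 replicate 1. Hmcn1, a basement membrane protein, kept it only without PND 10 replicate 1, with changes of 1.27 to 1.53 in the other omissions.

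Ltbp2, which binds elastic microfibrils, was 5.77, 5.52 and 5.39 at PND 3 and 7.35, 8.0 and 7.63 at PND 10. It rose by 2.10 (SE 0.22, adjusted p = 5.8e-06), or 4.28-fold, and was the 1 called gene of 19 elastic fibre genes (median 0.26), of which 9 had every PND 10 pool above every PND 3 pool. Eln, elastin itself, changed by 0.25 (adjusted p = 0.72). Mfap4, a microfibril protein, was 8.50, 9.03 and 8.99 at PND 3 and 9.62, 9.72 and 9.95 at PND 10, a change of 0.92 (adjusted p = 0.0014) that stayed under 2-fold. Of 33 collagen genes 0 were called and 12 had an unadjusted p under 0.05 (median 0.08), with Col1a1 at 0.82 (adjusted p = 0.026) and Col6a3 at 0.90 (adjusted p = 0.015). Of 21 myofibroblast, smooth muscle and pericyte genes 1 was called, Rgs5, a pericyte regulator of G protein signalling. It was 6.43, 6.10 and 5.82 at PND 3 and 7.44, 8.0 and 7.30 at PND 10, a change of 1.47 (adjusted p = 1.6e-05).

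Among the called rises were cell surface and guidance proteins named after their values were seen. Slit2, a secreted guidance cue, was 6.92, 7.09 and 6.95 at PND 3 and 7.96, 8.42 and 8.32 at PND 10, a change of 1.25 (adjusted p = 0.0035). Robo2, a receptor of Slit proteins, was 5.62, 5.88 and 5.64 at PND 3 and 6.72, 7.09 and 7.19 at PND 10, a change of 1.29 (adjusted p = 0.0045). Nrcam, an adhesion molecule of axons, was 5.07, 5.07 and 5.24 at PND 3 and 6.22, 6.34 and 6.46 at PND 10. These 3 genes had their pools within 0.5 log2 units of each other at each age, and each was above 1 log2 unit apart between the group means. Itga1, the collagen-binding integrin subunit, went from 7.54, 7.30 and 7.27 to 8.56, 9.19 and 8.98, a change of 1.54 (adjusted p = 8.1e-05). Gap43, a growth cone protein, rose by 1.24 and Ntrk2, the receptor of brain-derived neurotrophic factor, by 1.15. Slitrk6, a transmembrane protein of sensory and neural tissue, was 4.08, 4.09 and 4.34 at PND 3 and 6.22, 6.74 and 6.58 at PND 10, a change of 2.34 (SE 0.22, adjusted p = 1.7e-06), or 5.08-fold. Lama3, the laminin chain of epithelial basement membrane, rose by 1.48.

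Genes of retinoid handling and of fetal growth moved in both directions. Crabp1, which binds retinoic acid inside cells, was 4.09, 4.23 and 4.62 at PND 3 and 6.73, 6.89 and 6.63 at PND 10. It rose by 2.44 (SE 0.18, adjusted p = 3.3e-08), or 5.42-fold. Aldh1a2, which makes retinoic acid, was 7.13, 7.89 and 7.95 at PND 3 and 6.28, 6.05 and 6.42 at PND 10, and it fell by 1.41 (SE 0.29, adjusted p = 0.0084). Crabp1 and Aldh1a2 were the called genes among 23 retinoid genes (median -0.03). Igf2, an imprinted fetal growth factor, was 7.45, 7.31 and 7.54 at PND 3 and 6.51, 5.88 and 5.71 at PND 10, and it fell by 1.40 (SE 0.19, adjusted p = 0.00026). It was the 1 called gene of 19 imprinted genes (median -0.11), among which Plagl1, an imprinted zinc finger gene, changed by -0.73 (adjusted p = 0.0064). Igfbp2, which binds insulin-like growth factors, rose from 7.33, 7.55 and 7.54 to 9.13, 8.89 and 9.23, a change of 1.61 (SE 0.24, adjusted p = 0.00074). Of 11 renin-angiotensin genes 1 fell and 1 rose (median 0.10). Agtr2, the fetal angiotensin receptor, was 5.58, 5.36 and 5.50 at PND 3 and 4.66, 4.15 and 4.04 at PND 10, a fall of 1.19 (adjusted p = 0.0068). Anpep, an aminopeptidase that trims angiotensin, rose by 1.04, and its call held without PND 3 replicate 1 but under no other omission, with changes of 0.87 to 1.07.

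Tight junction and sodium channel genes were mostly lower at PND 10, with few calls. Of 20 tight junction genes 2 were called lower, 13 had every PND 10 pool below every PND 3 pool, 1 had a change above 0, and the median was -0.46. Cldn4, a claudin that seals the paracellular path, was 8.70, 8.83 and 8.75 at PND 3 and 7.15, 6.52 and 6.76 at PND 10, a fall of 1.95 (SE 0.29, adjusted p = 0.00065), or 3.86-fold. Cldn10, a claudin that forms ion pores, was 9.11, 9.14 and 8.94 at PND 3 and 8.13, 8.05 and 7.60 at PND 10, a change of -1.14 (adjusted p = 0.0019). Without PND 10 replicate 3 the change of Cldn10 was -0.97, under 2-fold. Cldn3 went from 9.77, 9.59 and 9.45 to 8.85, 8.58 and 8.52, a change of -0.95 (adjusted p = 0.0074) that also stayed under 2-fold. Cgn, the junction plaque protein cingulin, changed by -0.91 (adjusted p = 0.023) and Ocln, occludin, by -0.51 (adjusted p = 0.015). Omission of 1 pool left 1 to 4 calls in this list.

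Scnn1a, the alpha subunit of the sodium channel and not part of the transgene, was 9.47, 9.25 and 8.54 at PND 3 and 7.94, 7.81 and 7.69 at PND 10. It fell by 1.28 (SE 0.22, adjusted p = 0.0026), or 2.42-fold, and was the 1 called gene of 15 genes of the channel and its regulators (median -0.49). Scnn1g, the gamma subunit, was 9.43, 9.23 and 8.97 at PND 3 and 8.44, 8.54 and 8.62 at PND 10. Its change of -0.67 (adjusted p = 0.017) and that of Nedd4l, the ligase that removes the channel from the membrane, of -0.72 (adjusted p = 0.046) passed the test below 2-fold. Atp1b1, a subunit of the sodium pump, was 10.47, 10.17 and 9.69 at PND 3 and 9.09, 9.03 and 8.92 at PND 10. It changed by -1.09 (adjusted p = 0.005), and without PND 3 replicate 1 by -0.91, under 2-fold. Of 20 chloride, bicarbonate and potassium transport genes 1 was called lower, Kcnj15, a potassium channel, and the median was -0.05. That call, at -1.09, was lost without PND 3 replicate 1 (-0.90, adjusted p = 0.083).

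Falls also included genes of simple and stratified epithelium. S100a14, a calcium-binding protein of epithelia, was 8.23, 8.12 and 7.83 at PND 3 and 6.36, 5.91 and 5.79 at PND 10, a fall of 2.04 (adjusted p = 0.00087). Upk3a, a uroplakin of bladder and airway epithelium, was 5.84, 6.53 and 6.56 at PND 3 and 4.75, 4.91 and 4.63 at PND 10, a fall of 1.55 (adjusted p = 5.2e-06), and Upk1a fell by 1.47. S100a14 and Upk3a were also the 2 called genes of 21 basal and squamous epithelial genes (median -0.04). The lists of resident epithelial cells gave few calls. Of 15 club cell genes (median -0.37), 27 ciliated cell genes (median -0.04) and 20 alveolar type 2 genes (median -0.21) 0 were called, while 5, 4 and 3 of them had an unadjusted p under 0.05. Scgb1a1, the club cell secretoglobin, was 12.91, 13.27 and 12.63 at PND 3 and 12.19, 13.04 and 13.23 at PND 10. The pools of the 2 ages overlapped, and the change was -0.12. Among club cell genes Fmo2 and Aldh1a7, both enzymes that act on foreign compounds, changed by -0.84 and -0.78. Of 17 alveolar type 1 genes 1 was called higher, Igfbp2, while 10 had every PND 10 pool below every PND 3 pool, and the median was -0.28, with Ager, a receptor of the type 1 cell membrane, at -0.45 (adjusted p = 0.085).

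Lyve1, the hyaluronan receptor of lymphatic endothelium and of some macrophages, was 10.07, 9.40 and 9.49 at PND 3 and 8.13, 7.50 and 8.80 at PND 10. It fell by 1.51 (SE 0.23, adjusted p = 0.00074) and was the 1 called gene of 23 endothelial genes (median 0.32). Pecam1, which all endothelium carries, changed by 0.32 (adjusted p = 0.24) and Cdh5, the endothelial cadherin, by 0.58. The lymphatic genes Prox1 and Flt4 changed by -0.19 and -0.17. Prox1 was dim, with means of 4.23 at PND 3 and 4.04 at PND 10, so a larger fall could hardly have been seen.

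**Figure D3:**
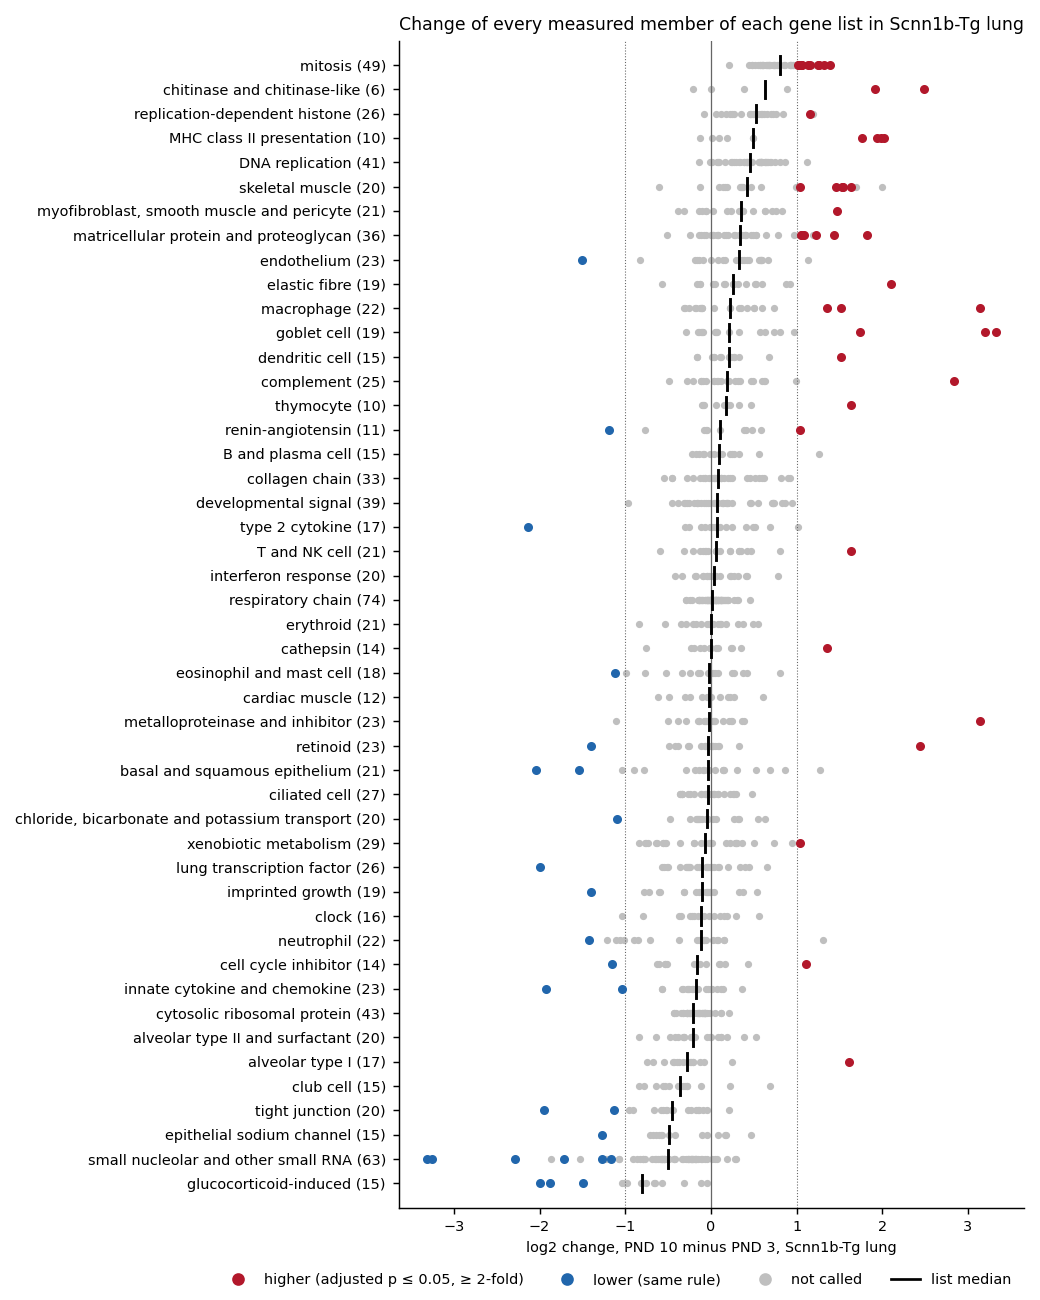
Log2 change from PND 3 to PND 10 in Scnn1b-Tg lung of each measured gene in 47 lists, sorted by list median (black bar), with genes called higher in red, called lower in blue and not called in grey. The mitosis list lies wholly above 0 with a median of 0.81 and 12 of 49 genes called, and the tight junction list has a median of -0.46 with 2 of 20 called.

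Part of the small nucleolar and other small structural RNAs fell. Of 63 measured, 6 were called lower and 0 higher, 20 had every PND 10 pool below every PND 3 pool, and the median was -0.51. Snora69 was 8.37, 8.17 and 6.80 at PND 3 and 4.62, 4.27 and 4.50 at PND 10, a change of -3.31 (adjusted p = 3.4e-06), or 9.95-fold lower. Snora23 was 10.12, 9.84 and 8.63 at PND 3 and 6.44, 6.59 and 5.81 at PND 10, a change of -3.25 (adjusted p = 0.0027). PND 3 replicate 3 was the lowest of its age for both. Without it the list had 8 calls, and without PND 3 replicate 1, PND 3 replicate 2 or PND 10 replicate 3 it had 2. The mean of the list was 7.32, 7.19 and 6.64 in the PND 3 pools and 6.40, 6.58 and 6.29 in the PND 10 pools, and 6.73, 6.84 and 7.23 in the WT PND 3 pools. Of 300 microRNA genes 0 were called and 8 had an unadjusted p under 0.05 (median -0.03), and 256 of them had a mean of 5 or less at both ages.

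Skeletal muscle genes followed 2 pools. Of 20 measured, 5 were called higher (median 0.42), in a list made after the values were seen. Tnnc2 was 4.04, 4.24 and 4.14 at PND 3 and 6.97, 6.20 and 4.15 at PND 10, and Tnnt3, another troponin, was 5.29, 5.34 and 5.48 at PND 3 and 7.82, 7.39 and 5.49 at PND 10. PND 10 replicate 3 was at the PND 3 level in both genes. The mean of the list was 4.56, 4.56 and 4.72 at PND 3 and 5.96, 5.41 and 4.59 at PND 10, and reached 5.34 in WT PND 3 replicate 3. Without PND 10 replicate 3 the list had 9 calls, without PND 3 replicate 3 it had 3, and without any other pool 1. The call that held throughout was Mb, myoglobin, at 4.31, 4.19 and 5.06 at PND 3 and 6.66, 5.90 and 5.62 at PND 10 (change 1.54, adjusted p = 0.0036). Of 12 heart muscle genes, also listed after the values were seen, 0 were called and 3 had an unadjusted p under 0.05 (median -0.02). Myl3 changed by 0.60 and Myh7 by -0.49.

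Squamous keratins were high in PND 10 replicate 1. Krt13 was 3.65, 3.65 and 3.72 at PND 3 and 7.58, 3.58 and 3.68 at PND 10, and Krt4 was 4.01, 4.10 and 4.18 at PND 3 and 7.15, 3.88 and 3.87 at PND 10. In WT, PND 3 replicate 3 had Krt13 at 7.51 and Krt4 at 7.24. The mean of the 21 basal and squamous genes was 5.28, 5.37 and 5.46 at PND 3 and 5.94, 4.86 and 4.89 at PND 10. The part of these pools in other results was not tested, and the counts without each pool are those given above.

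Genes that glucocorticoids induce were lower at PND 10. Of 15 measured 3 were called lower, 0 were above 0, 12 had every PND 10 pool below every PND 3 pool, and the median was -0.80. This list was made after the values were seen, and its 3 called members are among the 15 largest falls. Its counts are therefore a description and no independent evidence of a fall. Fkbp5, a cochaperone of the glucocorticoid receptor, was 8.18, 7.30 and 6.30 at PND 3 and 5.21, 5.15 and 5.79 at PND 10, a change of -1.87 (adjusted p = 0.024). Zbtb16, a transcription factor, was 7.27, 5.89 and 4.76 at PND 3 and 3.97, 4.01 and 3.96 at PND 10, a change of -1.99 (adjusted p = 0.043). Pdk4, which restrains glucose oxidation, was 7.40, 6.45 and 6.19 at PND 3 and 5.12, 5.29 and 5.15 at PND 10, a change of -1.49 (adjusted p = 0.023). PND 3 replicate 1 was highest and replicate 3 lowest in each of the 3. Without PND 3 replicate 1 no member was called, the median was -0.50, and Fkbp5 changed by -1.41, Zbtb16 by -1.34 and Pdk4 by -1.13. The list had 5 calls without PND 3 replicate 3 and 0 or 1 under the other omissions. Its mean was 8.09, 7.28 and 7.22 at PND 3 and 6.67, 6.62 and 6.66 at PND 10, and in WT it was 6.85, 7.34 and 6.47 at PND 3.

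**Figure D4:**
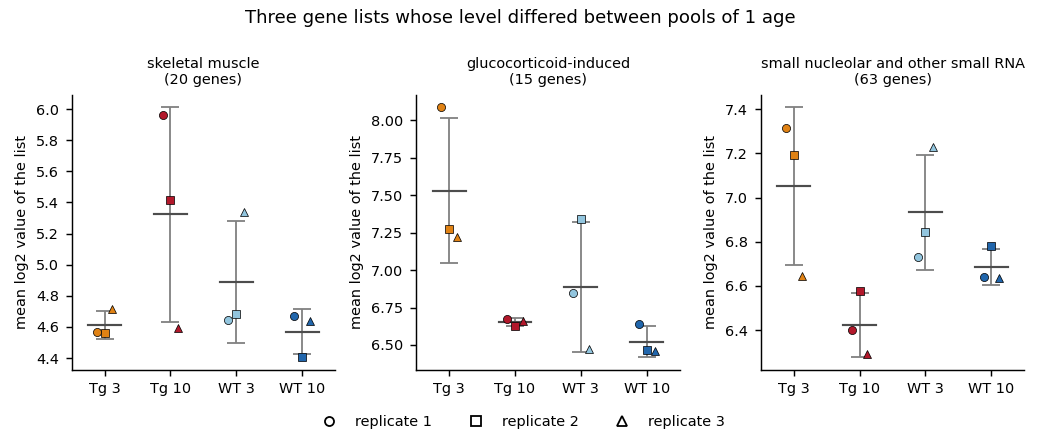
Mean log2 expression of 20 skeletal muscle, 15 glucocorticoid-induced and 63 small RNA genes in each Scnn1b-Tg and WT pool at PND 3 and PND 10 (points, 1 per array; bars, mean ± SD, n = 3). The muscle mean is 5.96 and 5.41 in 2 of the Scnn1b-Tg PND 10 pools and 4.59 in the remaining pool, and the glucocorticoid mean is highest, at 8.09, in Scnn1b-Tg PND 3 replicate 1.

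The remaining lists gave at most 1 call each. Of 26 lung transcription factors Zbtb16, described above, was called lower (median -0.10), and of 29 xenobiotic enzymes Gstt1, a glutathione transferase, was called higher (median -0.07), a call lost without PND 3 replicate 1 (0.88). Of 39 developmental signal genes 0 were called and 12 had an unadjusted p under 0.05 (median 0.08). In that list Wnt11, a signal of lung mesenchyme, was 5.53, 5.39 and 5.65 at PND 3 and 6.33, 6.42 and 6.44 at PND 10, a change of 0.87 (adjusted p = 0.00073) under 2-fold. No call was made among 16 clock genes (median -0.11), 21 erythroid genes (median 0.00), 74 respiratory chain genes (median 0.02) and 43 ribosomal protein genes (median -0.21), of which 4, 5, 2 and 8 had an unadjusted p under 0.05. Per1, a clock gene, changed by -1.04 (adjusted p = 0.12). Among all genes 2831 had an unadjusted p under 0.05.

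The same ages were compared in the WT littermates on separate arrays. In WT 124 genes were called higher, 0.622% of those tested, and 49 lower, 0.246%. Of the 100 Scnn1b-Tg rises 51 were called higher in WT as well, which is 51% of the Scnn1b-Tg rises and 41.1% of the WT rises. Of the 55 Scnn1b-Tg falls 20 were called lower in WT, 36.4% of the Scnn1b-Tg falls and 40.8% of the WT falls. No gene was called in opposite directions. The Scnn1b-Tg rises had a median change of 1.04 in WT and the Scnn1b-Tg falls a median of -0.89. A test of the difference between the genotypes in the change with age called 2 genes, 0.01% of those tested, and 1336 genes had an unadjusted p under 0.05. That number was larger without WT PND 3 replicate 2, as given in the last section, and without this pool 138 genes were called in WT. This pool was above the other WT PND 3 pools in most innate cytokine genes, though not in Il18. Cxcl10 was 4.30, 8.80 and 4.49 and Ccl3 was 5.72, 9.57 and 5.55 in the WT PND 3 pools.

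**Figure D5:**
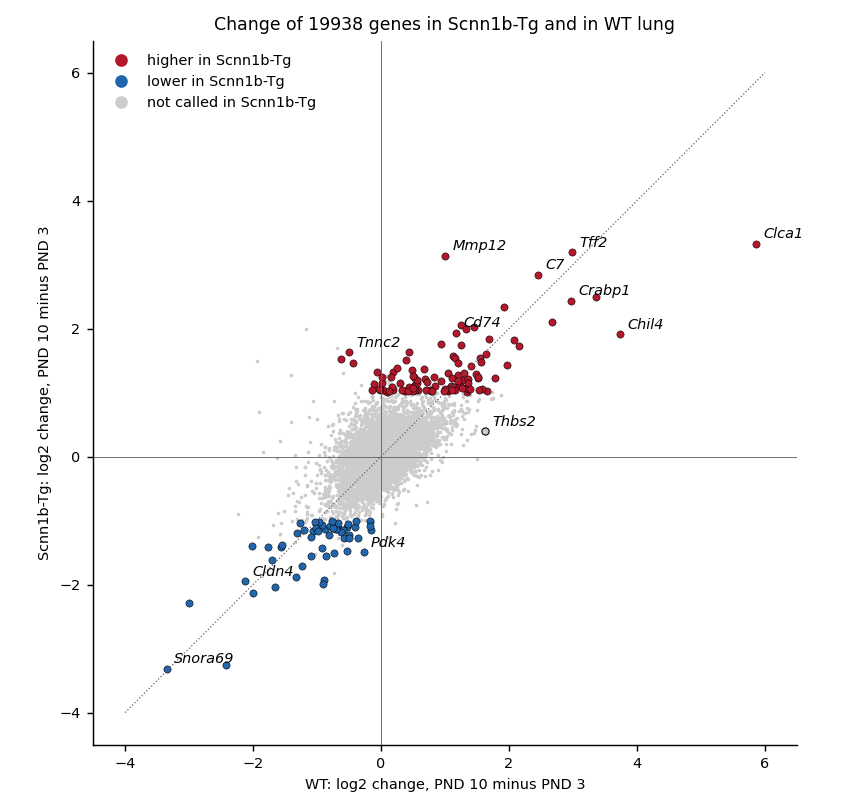
Log2 change from PND 3 to PND 10 of 19938 genes in WT lung (horizontal) against Scnn1b-Tg lung (vertical), with the dotted line marking equal change. Clca1 lies below the line at 5.86 in WT and 3.33 in Scnn1b-Tg, and Mmp12 above it at 1.00 and 3.14, and across genes r was 0.54 and rho 0.36 as a description without a p.

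Both called genes moved less in the transgenic lung. Clca1, a protein secreted by goblet cells, was 4.20, 4.27 and 4.63 at PND 3 and 7.62, 8.15 and 7.31 at PND 10 in Scnn1b-Tg, and 4.24, 4.11 and 4.56 at PND 3 and 10.53, 10.17 and 9.79 at PND 10 in WT. All 3 WT PND 10 pools were above all 3 transgenic pools of that age, and the difference in change was -2.54 (SE 0.31, adjusted p = 0.00075). Thbs2, a matricellular protein that limits vessel growth, was 5.58, 5.64 and 5.67 at PND 3 and 5.79, 6.22 and 6.08 at PND 10 in Scnn1b-Tg, and 5.79, 5.61 and 5.95 at PND 3 and 7.54, 7.41 and 7.28 at PND 10 in WT. The difference in change was -1.23 (adjusted p = 0.016), and the call was lost without Scnn1b-Tg PND 3 replicate 2 (-1.22), Scnn1b-Tg PND 10 replicate 1 (-1.11), WT PND 3 replicate 1 (-1.23) or WT PND 10 replicate 1 (-1.16).

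Antigen presentation and macrophage genes had larger changes in Scnn1b-Tg than in WT, but the difference was called for none of those named. The class II chains changed in WT by 1.46 for H2-Ab1, 1.32 for H2-Aa, 1.17 for Cd74 and 0.93 for H2-Eb1, and the adjusted p of the difference lay between 0.43 and 0.76 for the 4 genes. At both ages their means were lower in Scnn1b-Tg than in WT. PND 3 means were 7.25 against 8.10 for H2-Ab1, 7.54 against 8.51 for H2-Aa, 7.54 against 8.42 for Cd74 and 6.09 against 7.03 for H2-Eb1. In the same order the PND 10 means were 9.26 against 9.56, 9.52 against 9.83, 9.48 against 9.59 and 7.86 against 7.97. Mmp12 in WT was 5.03, 5.68 and 4.78 at PND 3 and 6.5, 6.6 and 5.40 at PND 10, a change of 1.00, and the difference in change was 2.14 (SE 0.39, adjusted p = 0.10). Itgax changed by 0.39 and Ctsk by 0.48 in WT. Scnn1a changed by -0.57 in WT (adjusted p = 0.17), with a difference of -0.70 (adjusted p = 0.71), and Lyve1 by -0.73. Matrix genes ran the other way in part, with 11 matricellular genes called in WT and a median of 0.56 there. Tnc changed by 2.08, Ltbp2 by 2.68, Slit2 by 1.52, Robo2 by 1.48 and Crabp1 by 2.97 in WT, while Cldn4 changed by -2.12, Igf2 by -2.01 and Ccl11 by -2.0.

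The levels of these genes at birth and in the young adult set the interval in context, and since those comparisons use the same PND 3 or PND 10 arrays only levels are given. H2-Ab1 had a mean of 5.89 ± 0.42 (SD, n = 3) in Scnn1b-Tg lung at PND 0 and 10.92 ± 0.13 at PND 42. Cd74 had means of 7.20 and 11.28, Mmp12 of 4.75 and 9.73, Itgax of 5.04 and 8.77, and C7 of 6.77 and 10.49 at these ages. For these 5 genes the PND 42 mean was above the PND 10 pools. Crabp1 had means of 4.49 and 4.56 and Slitrk6 of 4.19 and 4.20, both near the PND 3 pools. Tnc had means of 8.43 and 4.91, Frem1 of 8.06 and 4.80, and Prc1 of 5.26 and 4.32, each below the PND 10 pools at PND 42. Igf2 had means of 7.89 and 4.65 and Cldn4 of 8.23 and 5.57, while Aldh1a2, at 6.41 and 7.90, and Scnn1a, at 10.04 and 8.86, were above their PND 10 pools at PND 42.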

How the data were processed

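RNA of pooled whole left lungs was measured on Mouse Gene ST 1.0 arrays of Affymetrix. The deposited values are log2 intensities that the authors made in Partek 6.5, per the labels, with RMA background correction, quantile normalization and median polish. Scanner files were not used here, and the array medians were 4.79 to 5.00. Quantile normalization sets arrays to a common distribution before features are summarized, so a shift of all genes together could be hidden. The deposited values did not share 1 distribution exactly. The highest value was 12.43 in Scnn1b-Tg PND 10 replicate 1 and 13.31 to 14.04 in the other Scnn1b-Tg pools of PND 3 and PND 10. With quantile normalization repeated, 135 of the 155 calls were kept.

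Of 35556 features, 21789 carried 1 gene symbol, 1621 several and 12146 none. The brightest feature was kept for each of 19938 genes, 999 of which had more than 1. Symbols were checked against a RefSeq table, in which 21698 identifiers were found and 0 symbols differed. A linear model over all 8 groups (24 arrays, 16 residual degrees of freedom) was fitted in limma 3.58.1 (R 4.3.3) with empirical Bayes moderation. P-values were adjusted over all genes after Benjamini and Hochberg, and a call needed 0.05 or less and a change of 2-fold or more. An exact permutation test of 3 against 3 pools cannot go below 0.1, so none was used for calls. The number of arrays limits the precision. The scripts were tested on simulated data.

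The members and gene lists were chosen with earlier results of these data known, and 4 of the 48 lists (skeletal muscle, glucocorticoid-induced, thymocyte and cardiac muscle) after the values were seen. Named were the 15 largest rises and falls among called genes without overlap, the called members of each list up to 8 (otherwise the 2 of lowest p), the genes called for a difference between genotypes with 5 more on each side, Scnn1b, Ttr and Scgb1a1, and the genes whose promoters are printed, and of these only a selection is described. Other genes were named after their values were seen. Alternatives were the feature rule, fold threshold, filter, moderation, trend, array weights, scaling, arrays in the fit, replicate block and leaving out each array.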

Additional observations from a re-analysis of the deposited data

Results flagged for a closer look

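The change from PND 3 to PND 10 differed between Scnn1b-Tg and WT lung for 2 genes by limma's test of the difference between the genotypes. For Clca1 the Scnn1b-Tg change minus the WT change was -2.54 (adjusted p = 0.00075), with a rise in both genotypes. For Thbs2 it was -1.23 (adjusted p = 0.016), with a called rise in WT of 1.63 and a change of 0.40 in Scnn1b-Tg.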

How the results depend on the processing

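The 100 rises and 55 falls became 363 and 237 with no fold threshold and 285 and 186 at 1.5-fold. With all features as separate tests 178 rises were called, and without empirical Bayes moderation 36 falls. Leaving out each array in turn gave 60 to 118 rises and 23 to 86 falls. The 173 WT calls became 281 with all features, 902 with no fold threshold and 653 at 1.5-fold. The 2 differences between genotypes became 1 without moderation, 1 with the PND 3 and PND 10 arrays alone, 16 with array weights and 1 to 21 when each array was left out, with 21 without WT PND 3 replicate 2. Deviations of PND 3 and PND 10 arrays with the same replicate number correlated at -0.0491 to 0.0792 across genes, which cannot exclude a small effect of pairing. With the number as a replicate block 104 rises and 56 falls were called, 174 genes in WT and 2 differences, and all 155 calls were kept. The called rise of Top2a (1.27) reversed to -0.0188 when its features were averaged. Of uncalled genes, Ttr reversed (0.00) to 0.0828 with array weights and Scgb1a1 (-0.12) to 0.13 with quantile normalization repeated. Leaving out single arrays gave -0.14 to 0.10 for Ttr and -0.32 to 0.20 for Scgb1a1. The cause of these shifts was not tested. With 3 pools per age, and with 9064 genes at a mean of 5 or less in both Scnn1b-Tg groups, changes in dim genes may be understated.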
